A study of Rattus norvegicus with 32 samples.

Results

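The 6 genes followed here name lymphocytes or leukocytes in most tissues and were read in the rat hippocampus: Cd6, Cd22, Btk, Blnk, Ptprc and Thy1, which are 6 of the 23822 genes measured. They were chosen by name, with no measured value in the rule, but with earlier results of these data known. Thy1 was included as a contrast, because in rodent brain it is a neuronal gene. RNA came from the hippocampus of 32 rats on the Crl:CD(SD) background, in 8 groups by genotype, sex and age: rats heterozygous for a germline missense mutation of Gfap, an arginine changed to histidine (R237H, a model of Alexander disease) and their wild-type littermates (WT, Gfap+/+), male or female, at postnatal day 21 (P21) or 56 (P56). Each group held 4 rats, except that the P21 females were 3 WT and 5 R237H rats. The tissue took in Ammon's horn, the dentate gyrus and the subiculum, and no cell type was sorted, so in these bulk samples fewer cells of a type and less RNA per cell cannot be told apart. Gene symbols were known for 3289 identifiers, from tables of genes ordered by their change in these same rats, so a gene with a symbol was likelier to be called than any gene.

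CD45, the product of Ptprc, sits on leukocytes of all lineages, microglia included. CD22 and CD6 are inhibitory or adhesive receptors best known from B cells and T cells, and BTK and BLNK form the core of the signal that leaves the B cell receptor, with BLNK as the scaffold and BTK as the kinase that activates phospholipase C gamma. Microglia and other macrophages use much of the same chain downstream of Fc receptors and TYROBP-coupled receptors, so Btk and Blnk do not mark lymphocytes by themselves in brain. Thy-1 is a small glycoprotein on a GPI anchor, carried by developing T cells of the thymus and by projection neurons.

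Promoter sequence was matched by symbol for 4 of the 6 genes, all but Cd6 and Thy1, in the RefSeq promoter set of build GRCr8, and it is shown because all 4 genes were higher in R237H than in WT rats. Each line gives the 250 bases before the start site of transcription on the strand of the gene, which is the minus strand for all 4, at chr1:95259731-95259980 for Cd22, chrX:102055144-102055393 for Btk, chr1:249770534-249770783 for Blnk and chr13:52259747-52259996 for Ptprc. Capitals mark exact matches, on either strand, to GAGGAA (a core of sites bound by PU.1, an ETS factor of myeloid and B cells), to GGAAGT (a more general ETS core) or to ATGCAAAT (the octamer bound by POU factors).
Cd22: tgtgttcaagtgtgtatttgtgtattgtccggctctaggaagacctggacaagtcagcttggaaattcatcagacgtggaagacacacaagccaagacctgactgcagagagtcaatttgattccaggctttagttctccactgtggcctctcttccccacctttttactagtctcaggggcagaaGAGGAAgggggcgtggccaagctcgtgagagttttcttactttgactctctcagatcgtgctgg
Btk: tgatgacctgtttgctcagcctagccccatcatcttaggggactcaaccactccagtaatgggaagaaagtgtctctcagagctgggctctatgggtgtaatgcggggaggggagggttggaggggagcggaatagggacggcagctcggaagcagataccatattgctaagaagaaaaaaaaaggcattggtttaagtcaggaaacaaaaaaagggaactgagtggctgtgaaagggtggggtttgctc
Blnk: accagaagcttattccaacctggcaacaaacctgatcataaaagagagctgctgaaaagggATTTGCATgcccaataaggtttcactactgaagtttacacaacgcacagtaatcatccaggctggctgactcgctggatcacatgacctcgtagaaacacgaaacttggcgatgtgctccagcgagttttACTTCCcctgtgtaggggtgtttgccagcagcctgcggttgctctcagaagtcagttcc
Ptprc: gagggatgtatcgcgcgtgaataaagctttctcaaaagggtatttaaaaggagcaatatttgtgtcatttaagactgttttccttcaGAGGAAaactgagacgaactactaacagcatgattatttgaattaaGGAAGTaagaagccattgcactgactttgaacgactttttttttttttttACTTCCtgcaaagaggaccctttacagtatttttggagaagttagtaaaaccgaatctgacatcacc
The 3 motifs were picked after these windows had been read. Over the 300 bases from 250 before to 50 after the start site, GAGGAA was found in 3 of the 4 windows, and 27.6% of the 33469 promoters in the set hold it. It began 64 bases before the start site in Cd22 and 163 before it in Ptprc, and in Btk it lay on the reverse strand at base 10 after the start, past the stretch printed. GGAAGT, held by 22.6% of promoters, was found on the reverse strand 59 bases before the start of Blnk, and in Ptprc 117 bases before the start and, reversed, 67 bases before it. The octamer, held by 1.78% of promoters, was found once, reversed, 189 bases before the start of Blnk. No 2 of these matches overlapped. A match is a run of letters and no measure of binding.

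Libraries held 21580397 to 55544871 expected counts on genes, and the shallowest were an R237H male of each age, at 21580397 and 25420919. Gfap itself checked the labels: the lowest R237H value exceeded the highest WT value in each sex and age, at 3172 against 584 TPM in P56 males (TPM is a share of all transcripts, scaled for gene length). Summed choroid plexus markers ran from 3.84 to 6222 TPM among WT P56 males alone, with 1 rat at the top, and leaving that rat out did not change the call of any of the 6 genes. Other groups were uneven too. The highest sum was 3511 TPM in WT P21 females (median 8.71) and 1702 TPM in R237H P56 females (median 10.7). It was 1040 TPM in WT P21 males (median 10.5) and 795 TPM in R237H P56 males (median 17.8). All genotype tests below were edgeR quasi-likelihood F-tests within a sex and age, with the Benjamini-Hochberg FDR over all genes tested and a threshold of 0.01. Each of the 6 genes had at least 10 counts in each of the 32 rats and passed the low-count filter in each comparison.

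Of the 6 genes, Cd6, Cd22, Btk, Blnk and Ptprc, rose in R237H rats in both sexes at both ages, by 2.86-fold to 15.9-fold. Among all genes tested, 27.9% were called in either direction and 16.8% as increased in P56 males, and 28.1% and 17.0% in P56 females. At P21 the shares were 17.2% and 12.4% in males, and 7.82% and 7.06% in females. Among the tested genes with a symbol, which each gene and list here had to have, 57.5% were called increased in P56 males, 59.9% in P56 females, 53.5% in P21 males and 32.8% in P21 females, and 21.3%, 21.9%, 14.4% and 3.49% were called decreased in the same order. For these 5 genes the highest WT rat of any group lay below the lowest R237H rat of any group, so that no ranges met. R237H lay above WT without overlap for 42.5% of genes in P56 males and 32.9% in P56 females, and for 16.9% and 11.2% in the P21 males and females. Thy1 went the other way and fell at P56.

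**Figure D1:**
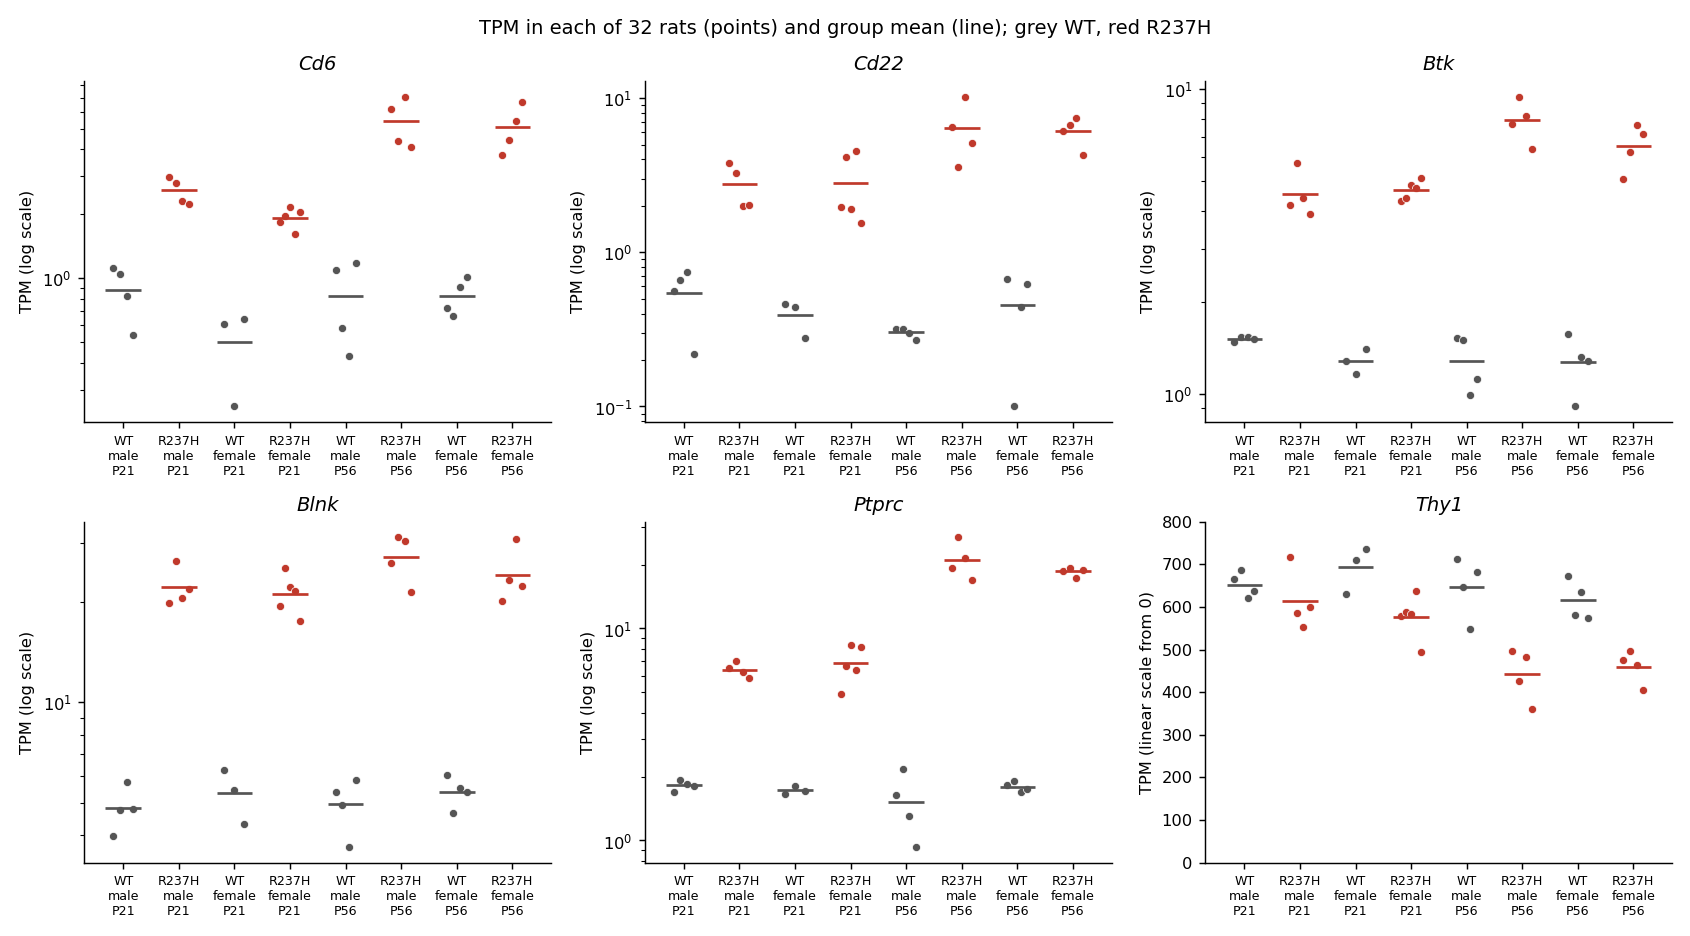
TPM of Cd6, Cd22, Btk, Blnk, Ptprc (log axes) and Thy1 (linear axis from 0) in each of the 32 rats, by genotype, sex and age, with a line at each group mean. In the first 5 panels all R237H points lie above all WT points, with Ptprc showing the widest step from P21 to P56, whereas in the Thy1 panel the genotypes overlap at P21 and separate downward at P56.

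Ptprc, the pan-leukocyte gene, showed the clearest difference between the ages. At P21, it stood at 1.7, 1.93, 1.84 and 1.8 TPM in WT males and at 6.5, 7.01, 6.22 and 5.81 TPM in R237H males. In P21 females, the WT rats stood at 1.65, 1.81 and 1.71 TPM and the R237H rats at 4.92, 6.64, 8.38, 6.39 and 8.14 TPM. The lowest R237H rat was thus already above 4 TPM at P21, while no WT rat reached 2. At P56, WT males stood at 1.63, 2.18, 1.31 and 0.93 TPM and R237H males at 19.3, 26.95, 21.46 and 16.91 TPM. WT P56 females stood at 1.83, 1.9, 1.7 and 1.74 TPM and R237H females at 18.75, 19.35, 17.33 and 18.94 TPM. WT rats lay between 0.93 and 2.18 TPM, with both ends among the P56 males, and R237H rats at P56 lay above those at P21 with no overlap. The log2 fold change was 1.81 (SE 0.09, FDR = 3.24e-08) in males and 2.08 (SE 0.21, FDR = 9.22e-05) in P21 females. It was 3.42 (SE 0.23, FDR = 4.06e-06) in males and 3.08 (SE 0.12, FDR = 1.64e-07) in P56 females, which are 10.7-fold and 8.44-fold.

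Cd6 encodes a scavenger receptor family protein of T cells that binds ALCAM. It had the lowest mean TPM of the 6 in R237H rats at P21. WT P21 males stood at 1.11, 1.04, 0.82 and 0.54 TPM and R237H males at 2.97, 2.8, 2.29 and 2.22 TPM. WT P21 females stood at 0.61, 0.25 and 0.64 TPM and R237H females at 1.82, 1.95, 2.15, 1.61 and 2.04 TPM. The gap between the genotypes was about 1 TPM at this age, and no rat crossed it. At P56, WT males stood at 1.09, 0.58, 0.43 and 1.18 TPM against 6.19, 4.37, 7.08 and 4.12 TPM in R237H males. WT females stood at 0.72, 0.66, 0.91 and 1.01 TPM against 3.76, 4.43, 5.45 and 6.64 TPM in R237H females. The R237H values at P56 were all above those at P21, and those of the sexes overlapped at P56. Cd6 rose by 1.51 (SE 0.21, FDR = 0.000168) and 1.95 (SE 0.33, FDR = 0.00239) on the log2 scale in males and P21 females. At P56 the log2 fold change was 2.36 (SE 0.31, FDR = 0.00024) in males and 2.31 (SE 0.20, FDR = 9.96e-06) in females. Behind the female P21 values are 17 to 47 counts per WT rat and 106 to 188 per R237H rat.

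Cd22, a sialic acid-binding lectin that dampens B cell receptor signaling, had the largest fold change of the 6 genes in each comparison. In P21 males the WT rats stood at 0.56, 0.66, 0.74 and 0.22 TPM and the R237H rats at 3.78, 3.27, 2 and 2.04 TPM. In P21 females the WT rats stood at 0.46, 0.44 and 0.28 TPM and the R237H rats at 1.98, 4.14, 1.92, 4.57 and 1.55 TPM. The R237H females were widely spread, with 2 rats above 4 TPM and 3 below 2, but none reached down to the WT rats. In P56 males the WT rats stood at 0.32, 0.32, 0.3 and 0.27 TPM and the R237H rats at 6.49, 3.56, 10.24 and 5.13 TPM. In P56 females the WT rats stood at 0.67, 0.1, 0.44 and 0.62 TPM and the R237H rats at 6.08, 6.66, 7.4 and 4.29 TPM. No ranges met at P56 in either sex, and 1 WT female held 10 counts, the lowest of any of the 6 genes in any rat. The log2 fold change was 2.37 (SE 0.32, FDR = 0.000155) in males and 2.92 (SE 0.46, FDR = 0.00161) in P21 females, and 3.99 (SE 0.34, FDR = 1.52e-05) and 3.46 (SE 0.42, FDR = 0.000116) at P56. Without WT female P21 replicate 2, the female P21 value had FDR = 0.0102 and was no longer called. Cd22 exceeded Cd6 in TPM in 11 of 17 R237H rats and in 1 of 15 WT rats.

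Btk, the Tec family kinase of B cells and myeloid cells, stayed below 2 TPM in all 15 WT rats. WT P21 males stood at 1.48, 1.54, 1.54 and 1.52 TPM and R237H males at 4.17, 5.71, 4.4 and 3.9 TPM. WT P21 females stood at 1.28, 1.16 and 1.4 TPM and R237H females at 4.29, 4.4, 4.84, 4.75 and 5.11 TPM. Both sexes thus went from under 2 to about 4 or 5 TPM by P21. WT P56 males stood at 1.53, 1.5, 0.99 and 1.12 TPM and R237H males at 7.69, 9.47, 8.19 and 6.39 TPM. WT P56 females stood at 1.57, 0.91, 1.32 and 1.28 TPM and R237H females at 5.09, 6.24, 7.62 and 7.12 TPM. R237H P56 males lay above all R237H P21 males, and in females 1 rat at P56, at 5.09 TPM, fell among the P21 values. The log2 fold change was 1.58 (SE 0.13, FDR = 2.42e-06) and 1.94 (SE 0.17, FDR = 4.1e-05) in males and P21 females, and 2.25 (SE 0.17, FDR = 6.68e-06) and 2.05 (SE 0.18, FDR = 1.09e-05) at P56.

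Blnk, the adaptor that brings BTK and phospholipase C gamma together, was the most abundant of the 5 and the second most abundant of the 6 in 32 of 32 rats. WT P21 males stood at 3.98, 4.74, 5.76 and 4.79 TPM and R237H males at 19.81, 26.54, 20.5 and 21.92 TPM. WT P21 females stood at 6.28, 5.45 and 4.33 TPM and R237H females at 19.39, 25.18, 22.18, 21.49 and 17.56 TPM. No R237H rat at P21 came near the WT range. WT P56 males stood at 5.38, 4.93, 3.68 and 5.85 TPM and R237H males at 26.24, 31.24, 30.43 and 21.46 TPM. WT P56 females stood at 6.05, 4.65, 5.52 and 5.38 TPM and R237H females at 20.08, 23.25, 30.8 and 22.31 TPM. The ranges of the 4 R237H groups met from each group to the next in order of mean level, unlike those of Ptprc. The log2 fold change was 2.21 (SE 0.11, FDR = 5.35e-08) and 2.06 (SE 0.20, FDR = 7.87e-05) in males and P21 females, and 2.07 (SE 0.17, FDR = 1.12e-05) and 1.86 (SE 0.14, FDR = 4.37e-06) at P56.

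**Figure D2:**
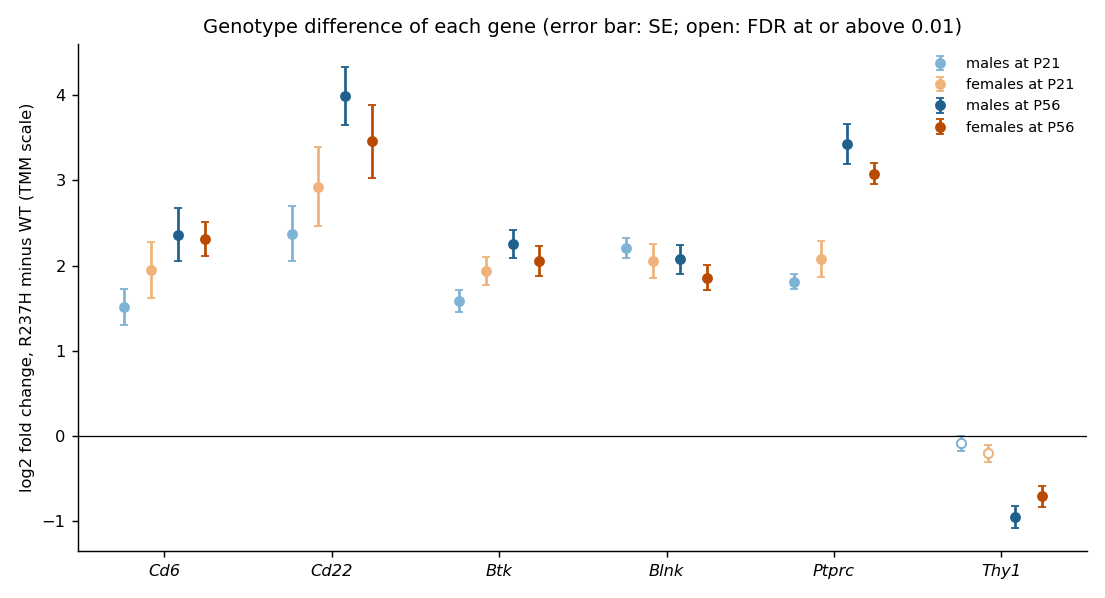
Log2 fold change of R237H against WT (vertical axis, TMM-scaled counts) for the 6 genes in the 4 comparisons, with SE bars, open where the FDR was at or above 0.01. Blnk stays near 2 at both ages, Ptprc goes from 1.81 to 3.42 in males, and Thy1 is below 0 with filled points at P56.

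Whether the genotype difference itself differed between groups was tested by interaction. Between the sexes it was called for none of the 6 genes, nor for any of the 15419 genes tested at P56 or the 15361 tested at P21 (edgeR quasi-likelihood, with 310 and 458 at an unadjusted p under 0.05, and 0 by the likelihood-ratio test too). The errors were widest for the rare genes. The female minus male difference of Cd22 was 0.55 (SE 0.59) at P21 and -0.50 (SE 0.57) at P56 on the log2 scale, and that of Blnk was -0.15 (SE 0.22) and -0.18 (SE 0.22). Between the ages, 10.1% of genes were called in males and 2.15% in females. In males, the rise of Ptprc was larger at P56 than at P21 by 1.59 (SE 0.24, FDR = 0.000339). In females the same difference was 1.01 (SE 0.23) and missed the threshold (FDR = 0.0157), and on the TPM scale it was 1.39 and passed it. Cd22 (1.60, FDR = 0.0322) and Btk (0.65, FDR = 0.0268) missed it in males, Btk passing on the TPM scale at 1.04, and Cd6 gave 0.83 (SE 0.39, FDR = 0.137). In females the differences of these 3 genes were 0.54 (SE 0.65, FDR = 0.682) for Cd22, 0.12 (SE 0.23, FDR = 0.814) for Btk and 0.36 (SE 0.38, FDR = 0.634) for Cd6, none of them called. For Blnk the difference was -0.15 (SE 0.21, FDR = 0.641) in males and -0.19 (SE 0.23, FDR = 0.691) in females, with 0.26 and 0.16 on the TPM scale. The ages were different rats with differently styled sample names, and age cannot be told apart from the occasion of collection. At P21 the sexes shared no number in their sample names, so sex there cannot be told apart from what that number marks.

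Thy1 was the most abundant of the 6 in 32 of 32 rats, by more than an order of magnitude. WT P21 males stood at 665.78, 685.83, 620.73 and 638.03 TPM and R237H males at 717.1, 586.36, 552.18 and 600.75 TPM. WT P21 females stood at 631.15, 710.51 and 736.63 TPM and R237H females at 579.73, 587.47, 584.33, 637.3 and 495.35 TPM. The genotypes overlapped in both sexes at P21, where 4.82% of genes in males and 0.753% in females were called decreased and 11.9% and 8.85% lay lower without overlap. Neither Thy1 difference was called, at -0.08 (SE 0.09, FDR = 0.513) and -0.20 (SE 0.10, FDR = 0.263) on the log2 scale. WT P56 males stood at 713.22, 647.13, 549.4 and 682.19 TPM and R237H males at 497.03, 427.21, 483.26 and 361.58 TPM. WT P56 females stood at 672.19, 582.07, 636.1 and 573.07 TPM and R237H females at 475.05, 496.38, 463.95 and 404.69 TPM. No R237H rat reached the lowest WT rat of its sex at P56, a pattern seen for 2.60% of genes in males and 4.68% in females. Thy1 fell by 0.95 (SE 0.13, FDR = 0.000269) in males and by 0.71 (SE 0.12, FDR = 0.00112) in females on the log2 scale, where 11.1% of genes were called decreased in each sex. The fall was larger at P56 than at P21 in males by 0.89 on the log2 scale (difference -0.89, SE 0.16, FDR = 0.00142), whereas in females the difference was -0.50 (SE 0.16, FDR = 0.0757).

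These Thy1 calls depended on the scale. TMM centers most genes at no change, while TPM is a share of all transcripts, and at P56 the median gene lay 0.40 higher in males and 0.29 higher in females on the TPM than on the TMM scale. At P21 the shift was -0.0027 in males and -0.07 in females. Of all genes called at P56, 60.1% in males and 60.3% in females were increases by TMM, against 95.2% and 92.6% by limma on log2(TPM + 0.1). On the TPM scale Thy1 was lower by a log2 difference of -0.56 (FDR = 0.0124) in males and -0.42 (FDR = 0.0131) in P56 females, neither called, and its age difference in males was -0.46 (FDR = 0.0422). The 5 leukocyte genes were called on both scales in all 4 comparisons.

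Neuronal genes were described beside Thy1. Of 18 neuronal markers listed, 7 had a symbol, and 6 of them fell in males and 5 in P56 females, with a median log2 fold change of -1.02 and -0.71, where 21.3% and 21.9% of all genes with a symbol fell. At P21, 2 fell in males and 0 in females, with medians of -0.28 and -0.31, where 14.4% and 3.49% of all genes with a symbol fell. The median over all genes tested was -0.01 and -0.03 at P56 and -0.01 and -0.01 at P21. Over the tested genes with a symbol it was 0.92 and 0.89 at P56 and 0.45 and 0.49 at P21. Neurofilament light chain, Nefl, went from a mean of 354 TPM to 230 TPM in P56 males (log2 fold change -1.02, SE 0.12, FDR = 0.000134), and the synaptic vesicle gene Syn1 from 360 to 210 TPM (-1.20, SE 0.16, FDR = 0.00029). On the TPM scale 2 of the 7 markers fell in males and 1 in P56 females, with medians of -0.62 and -0.38, where the median over all genes was 0.40 and 0.26. On that scale 189 of the 15097 genes tested were called decreased in P56 males and 295 of 15033 in P56 females. Thy1 is carried on a GPI anchor, and of 13 other genes of neuronal GPI-anchored proteins 4 had a symbol. Ntm, Nrn1 and Lynx1 fell at P56 in both sexes by TMM, with Ntm at -1.04 (SE 0.11, FDR = 4.69e-05) in males and Lynx1, a modulator of nicotinic receptors, at -0.78 (SE 0.09, FDR = 0.000105), whereas 1 of the 4 fell in each sex at P56 on the TPM scale. Cntn2 was not called at P56, at -0.01 (SE 0.11) in males. Summed TPM of the 7 markers was 1046 to 1162 in R237H males and 1320 to 1617 in WT P56 males. Its part in the fall of Thy1 was not tested.

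**Figure D3:**
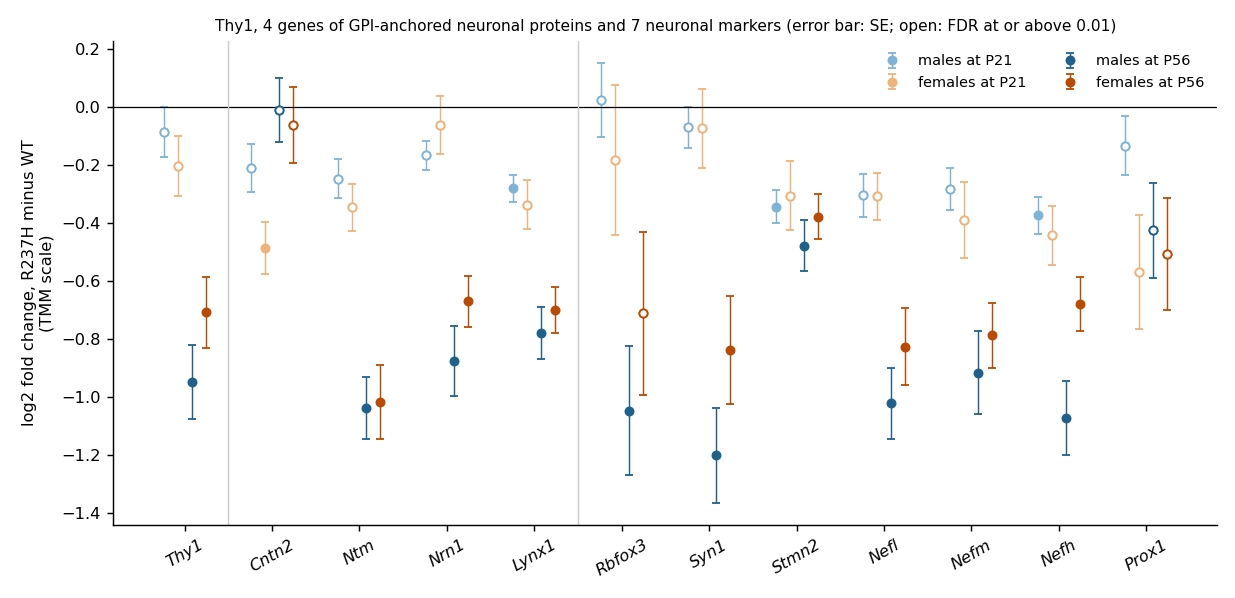
Log2 fold change of R237H against WT (vertical axis, TMM-scaled counts) with SE for Thy1, 4 genes of other neuronal GPI-anchored proteins and 7 neuronal markers, open where the FDR was at or above 0.01. At P56 the points of Thy1, at -0.95 and -0.71, lie among those of Ntm, Nrn1, Lynx1 and the neurofilament genes, and the P21 points of Thy1 lie nearer 0.

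The rest of the B cell receptor chain was read from a list of 24 genes other than Btk, Blnk and Cd22, of which 17 had a symbol, and the low-count filter left out Cd72 at P21. In P56 males, 16 of 17 rose, with a median log2 fold change of 2.35, and in P56 females, 17 of 17 rose, with a median of 2.28. At P21 the filter kept 16, of which 16 rose in males (median 1.38) and 14 in females (median 1.68). None fell in any comparison. Of all tested genes with a symbol, 57.5% rose in P56 males, 59.9% in P56 females, 53.5% in P21 males and 32.8% in P21 females, and the median was 0.92 and 0.89 at P56 and 0.45 and 0.49 at P21. Ptpn6, the phosphatase SHP-1 that CD22 recruits, rose from a mean of 5.41 to 45.3 TPM in P56 males (log2 fold change 2.70, SE 0.14, FDR = 1.03e-06). The exchange factor gene Vav1 rose from 1.28 to 15.8 TPM (3.30, SE 0.16, FDR = 8.22e-07). Fcgr2b, the inhibitory Fc receptor shared by B cells and macrophages, rose from 2.65 to 73.1 TPM (4.39, SE 0.21, FDR = 8.22e-07). Syk and Lyn, the kinases that act before BTK, were picked for that role after their values were seen, and rose by 1.52 (SE 0.12, FDR = 1.1e-05) and 2.07 (SE 0.11, FDR = 9.96e-07). Ifitm1 was the one not called in P56 males, at 1.98 (SE 0.56, FDR = 0.0168). In P21 females Pik3cd gave 0.62 (FDR = 0.0156) and Nfatc1 0.68 (FDR = 0.0914).

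**Figure D4:**
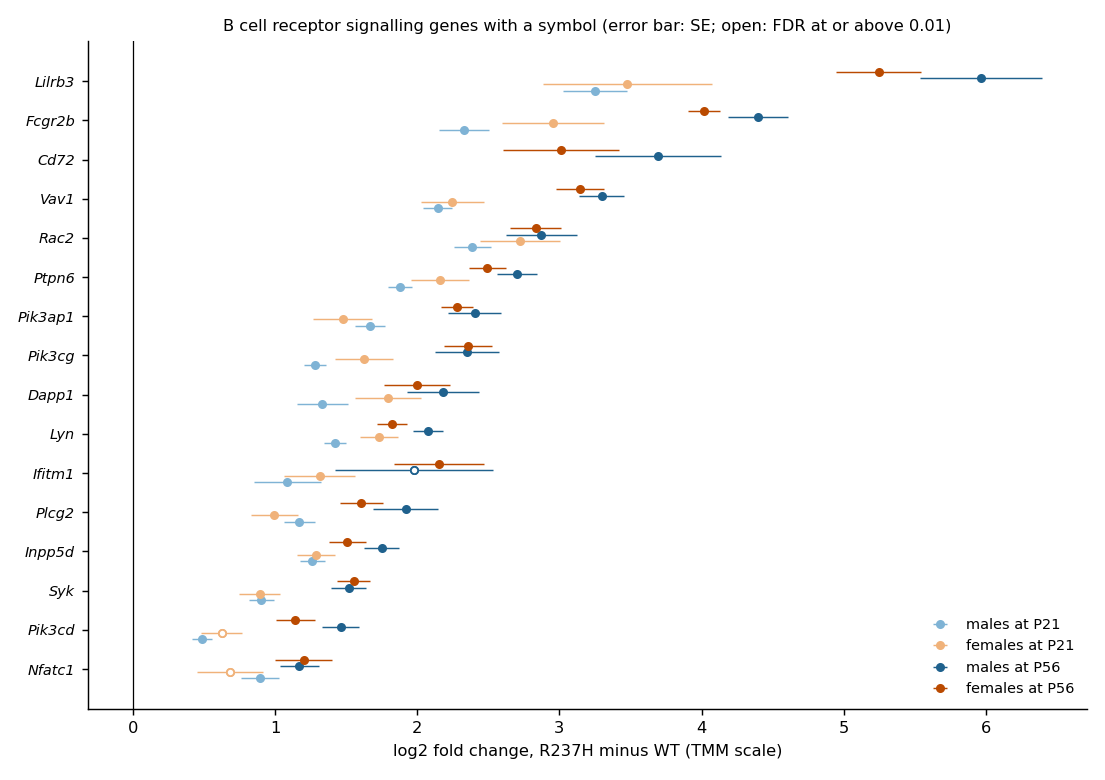
Log2 fold change of R237H against WT (horizontal axis, TMM-scaled counts) with SE for 16 of the 17 B cell receptor signaling genes with a symbol, one row per gene, in the 4 comparisons, open where the FDR was at or above 0.01. All points lie to the right of 0, the P56 points mostly further out than those of P21, and Cd72 has points at P56 alone because it did not pass the low-count filter at P21.

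Genes around the other members were read in the same way. Tec, the one gene with a symbol among 4 other Tec family kinases, rose at P56 in males (1.49, SE 0.15, FDR = 4.11e-05) and females (1.13, SE 0.18, FDR = 0.000687), and in P21 males. Of 10 listed sialic acid-binding lectins and enzymes that build their ligands, 7 had a symbol, and 3, 4, 5 and 3 of them rose in P56 males, P56 females, P21 males and P21 females. Beside the 57.5%, 59.9%, 53.5% and 32.8% of genes with a symbol that rose, the share at P56 was no higher than that of all such genes. Cd33, a lectin of myeloid cells, rose from 5.61 to 35.3 TPM in P56 males (2.34, SE 0.22, FDR = 2.96e-05), and none of the 7 fell. Of 10 partners of CD45 and of the Src kinases it acts on, 5 had a symbol, and 5, 5, 5 and 4 of them rose in the same order. Fgr, a Src family kinase of myeloid cells, rose by 2.16 (SE 0.22, FDR = 4.18e-05) on the log2 scale in P56 males. Lgals3, for galectin-3, rose from 2.51 to 201 TPM (5.94, SE 0.37, FDR = 2.59e-06). The ligands of CD6 were not analysed here.

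Markers that would set lymphocytes apart could be read in small part. Of 17 defining T cell genes 1 had a symbol, Bcl11b, which cortical and hippocampal neurons also express and which fell at P56 (-1.11, SE 0.18 in males and -0.94, SE 0.13 in females). Of 12 defining B cell genes and 11 natural killer cell genes none had one, and Cd3e, Cd3g, Cd8a, Ms4a1 and Cd79b were not analysed here. Among 18 further T cell genes 6 had a symbol, and 4 of those tested rose in each comparison, beside 57.5%, 59.9%, 53.5% and 32.8% of all genes with a symbol. They include Lcp2 (2.41 to 16.2 TPM in P56 males) and Fyb1 (1.06 to 20.7 TPM), adaptors that myeloid cells share. Icos, a costimulatory receptor of activated T cells, rose at P56 from a mean of 0.113 to 0.907 TPM in males (2.69, SE 0.43) and from 0.16 to 0.635 TPM in females (1.90, SE 0.38), did not pass the filter in P21 males, and was not called in P21 females (FDR = 0.227). Cd7 rose in P56 females (3.79, SE 0.85, FDR = 0.00482) and P21 males (2.56, SE 0.58, FDR = 0.00625), was not called in P56 males (2.54, SE 1.10, FDR = 0.0883), and did not pass the low-count filter in P21 females. Pdcd1, for the receptor PD-1, passed it in P21 females alone, where its mean was 0.0167 TPM in WT and 0.29 TPM in R237H rats (4.12, SE 0.83, FDR = 0.00716). With so little in WT rats, it could pass the filter only through the R237H rats. Its call, 1 of the 4 counted there, is therefore not independent of the filter. Among 13 homing genes 6 had a symbol, and 4, 4, 5 and 3 rose and 1, 2, 1 and 0 fell in P56 males, P56 females, P21 males and P21 females, beside increases in 57.5%, 59.9%, 53.5% and 32.8% and decreases in 21.3%, 21.9%, 14.4% and 3.49% of genes with a symbol. Itgal, the integrin chain of LFA-1, rose from 0.522 to 15.1 TPM in P56 males (4.51, SE 0.24, FDR = 1.13e-06), and Cxcr3, a chemokine receptor of activated T cells, from 0.0675 to 1.34 TPM (3.97, SE 0.68, FDR = 0.00112). S1pr1 fell in P56 males (-0.62, SE 0.12, FDR = 0.00252), P56 females (-0.77, SE 0.09, FDR = 7.74e-05) and P21 males (-0.35, SE 0.06, FDR = 0.00146). Selplg fell in P56 females (-1.40, SE 0.26, FDR = 0.00161) and rose in P21 males (0.52, SE 0.08, FDR = 0.000555). Whether any of this RNA came from lymphocytes was not tested.

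Myeloid markers moved with the 5 genes. Of 19 microglia markers 16 had a symbol, and 14, 13, 16 and 14 of them rose in P56 males, P56 females, P21 males and P21 females, with none falling. Of all genes with a symbol 57.5%, 59.9%, 53.5% and 32.8% rose and 21.3%, 21.9%, 14.4% and 3.49% fell in the same order. These shares are the background of each count given here. The summed level of the 16 microglia markers was 253 to 455 TPM in WT rats, 891 to 1548 TPM in R237H rats at P21 and 2107 to 3580 TPM in R237H rats at P56. Of 8 border macrophage markers 7, 7, 7 and 6 rose, with Mrc1, the mannose receptor, going from 1.71 to 25.9 TPM in P56 males. The low-count filter left out Ms4a7 at P21, so the counts at that age are out of 7 tested. Of 13 monocyte and neutrophil genes 4 had a symbol and 3, 4, 3 and 3 rose, with 3 tested in P21 males, where the filter left out Cxcr2. The 4 red cell markers with a symbol fell at P56, to a sum of 74.0 to 145 TPM in R237H rats from 349 to 1793 TPM in WT rats, and overlapped between the genotypes at P21. Of the other lists, both plasma cell genes with a symbol, Prdm1 and Sdc1, rose at P56, and 1 of them in P21 males. The 1 gene with a symbol on the endothelial and pericyte list was Pdgfrb, a pericyte gene, so no endothelial marker was read. Neither Pdgfrb nor the choroid plexus genes were called. In each sex at P56, 2 of 6 astrocyte genes rose and 1 fell, with 3 and 2 in P21 males and 2 and 1 in P21 females. The part of these cell types in the results was not tested.

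Relative to the summed microglia markers, the 5 genes differed from each other, and the values depended on the complement C1q genes. With all 16 markers, Ptprc stood at 4.07 ± 1.40 (SD, n = 4) per 1000 TPM of markers in WT males and 7.47 ± 1.06 in R237H P56 males, and Cd22 at 0.830 ± 0.255 and 2.23 ± 0.772. Cd6 differed by less than its SD, at 2.10 ± 0.724 and 1.93 ± 0.466. Btk stood at 3.42 ± 0.683 and 2.81 ± 0.366, and Blnk, lower in R237H rats, at 13.1 ± 1.54 and 9.65 ± 0.884. At P21 Blnk was instead higher in R237H males, where the lowest R237H male stood at 16.6 and the highest WT male at 14.2. C1qa, C1qb and C1qc made up 23.5% to 37.6% of the sum in WT rats and 58.8% to 65.7% in R237H rats at P56. Without these 3 genes, a choice made after the values were seen, Blnk stood at 19.3 ± 2.12 in WT and 25.2 ± 1.19 in R237H P56 males, Btk at 4.99 ± 0.742 and 7.32 ± 0.628, and Cd6 at 3.11 ± 1.13 and 5.02 ± 1.08. Ptprc stood at 5.92 ± 1.86 and 19.5 ± 2.39 and Cd22 at 1.21 ± 0.322 and 5.83 ± 2.15, so both had the higher mean in R237H males by either sum. No test was run on these ratios. How much of the rise of each gene follows cell number was not tested.

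**Figure D5:**
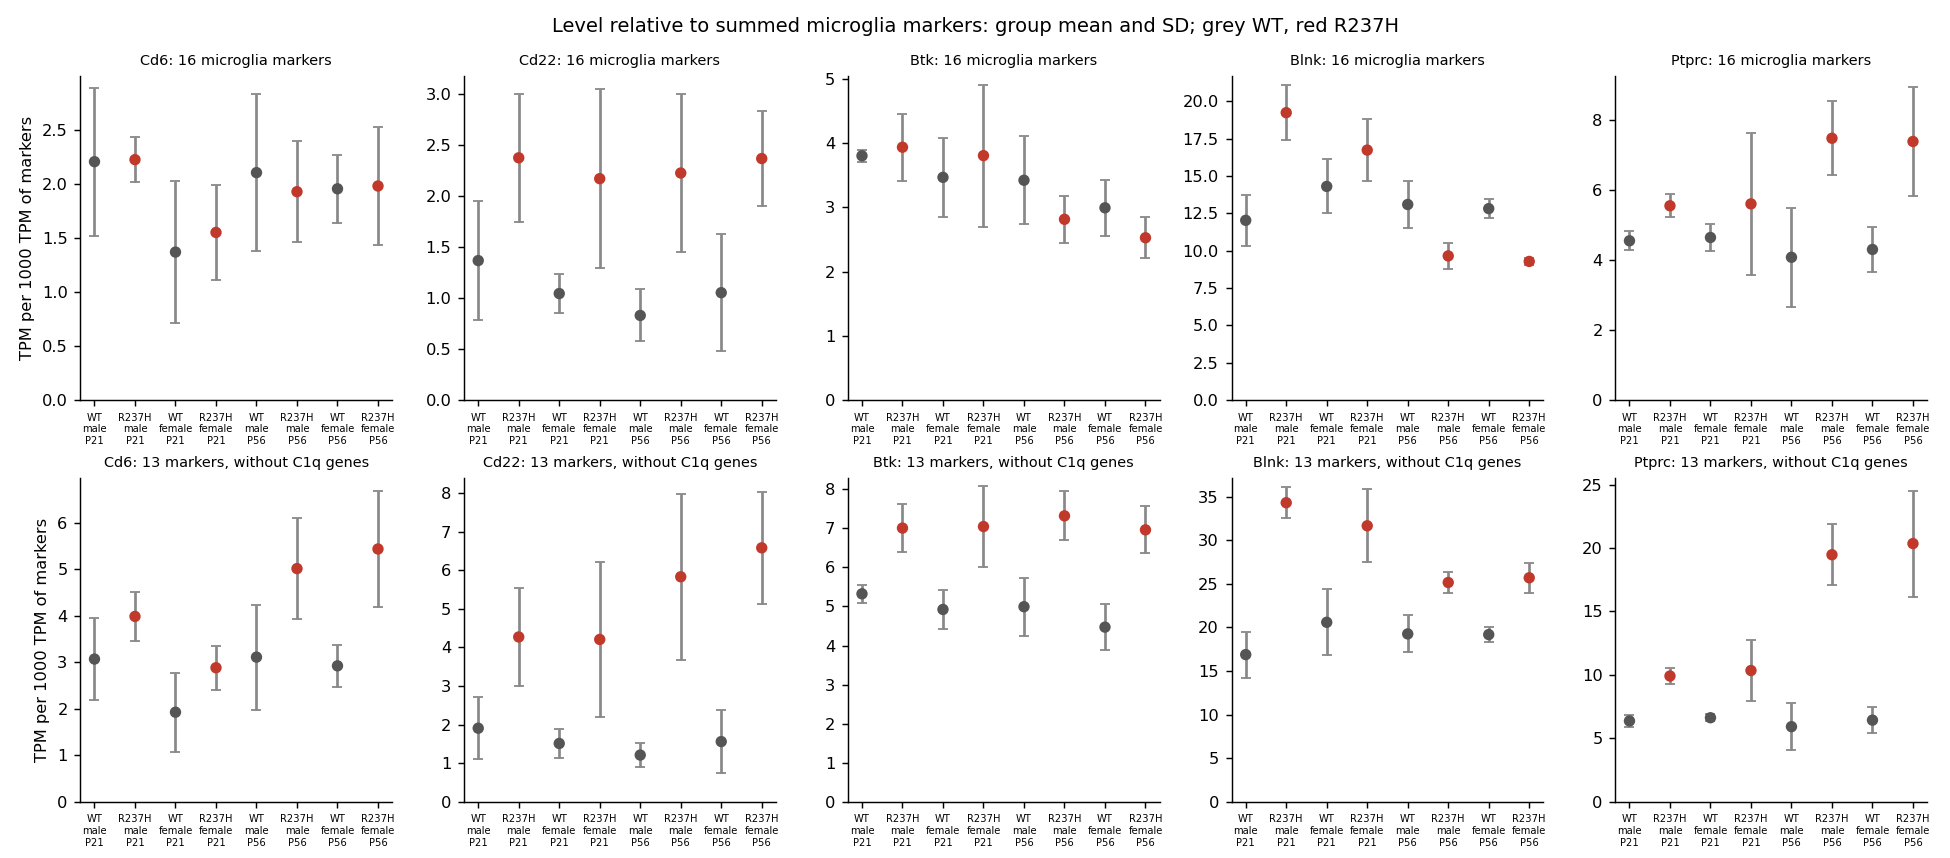
Mean and SD of each of the 5 genes per 1000 TPM of summed microglia markers (vertical axes from 0), by group, with all 16 markers (top) and without the 3 C1q genes (bottom). The means of Ptprc and Cd22 are higher in R237H than in WT rats of each sex and age in both rows. With all 16 markers, the ranges of single rats, which are not drawn, overlapped between genotypes for Cd22 in males and Ptprc in females at both ages. The mean of Blnk at P56 is lower in R237H rats in the top row and higher in the bottom row.

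Within groups, rats were compared by the deviation of each gene from its group mean (log2 CPM, 32 rats, Pearson r, given as a description). The strongest pairs among the 6 genes were Cd22 with Thy1 (r = 0.52), Btk with Ptprc (0.48), Btk with Blnk (0.47) and Cd22 with Blnk (0.45), and Cd6 with Ptprc gave -0.17. Among 2991 genes with a symbol, those most like Ptprc were Card6 (0.83), Bmp2k (0.81) and Adgrf5 (0.80). Blnk was nearest to Arhgap9 (0.76), Inpp5d (0.76), which encodes the phosphatase SHIP-1, and Itgb2 (0.74), and Btk to Dennd2c (0.73), Nckap1l (0.72) and Fam169b (0.71). The rarest genes had looser matches: Cd22 with P2ry2 (0.65), Zc3h12a (0.64) and Tgfb1 (0.63), and Cd6 with Prss35 (0.66), Kcnv1 (0.65) and Siglec15 (0.65). Thy1 was nearest to Dmtn (0.89), Slc25a23 (0.80) and Gstm1 (0.78). Likeness within groups did not always hold across the levels of all 32 rats. There r was -0.60 for Adgrf5 with Ptprc, and -0.62 for Prss35 and -0.68 for Kcnv1 with Cd6. It was 0.15 for Gstm1 with Thy1 and -0.69 for Cd22 with Thy1. The other nearest genes gave 0.62 to 0.99. The points share library depth and tissue composition.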

How the data were processed

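Hippocampal RNA of 32 rats was sequenced from polyA-selected, stranded libraries. The authors called bases with bcl2fastq 2.20.0.422, trimmed with Skewer, aligned with STAR and estimated expression with RSEM. The genome build is not given in the sources used here. They deposited unscaled expected counts per gene, of which 5.68% were not whole, and the RSEM TPM values the authors made from them. The counts, rounded here, went into edgeR 4.0.16 (R 4.3.3): filterByExpr, TMM, quasi-likelihood F-test of R237H against WT within a sex and age, FDR under 0.01, and interactions by sex and by age. Each SE is the estimate divided by the root of its F statistic. A log2 value on the TPM scale used limma 3.58.1 with a pseudocount of 0.1, which understates changes of rare genes. Tables and figures used Python 3.11.15, pandas 2.3.3, numpy 2.4.6 and matplotlib 3.10.9. Tested on simulated counts with the WT means and the real dispersions, the fit recovered 53% of 2-fold and 90% of 4-fold changes for P56 males, and 61% and 89% for P21 females. There 100 genes changed at each fold, of 15097 and 15149, with as many up as down. Many more genes were called in the data, mostly as increases, so the simulation does not bear on the choice of scale.

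The 6 genes and the 21 gene lists were chosen with earlier results of these data known. Symbols came from name columns of supplementary tables, whose fold changes and p-values were not used, and matched 104 of 239 listed symbols. Named beside the 6 genes were at most 4 members of a list past the FDR, Gfap, Pdgfrb and the listed markers of T and B cells. Also named were members left out by the filter, and 3 genes most like each of the 6 with a mean of at least 50 counts. Other settings tried were DESeq2 1.42.0, edgeR's likelihood-ratio test, RLE scaling, an unfiltered table, one model of all 32 rats, the TPM scale, a block on the title number, an FDR of 0.05 and leaving out each rat. The TPM scale for interactions was added after the data were seen. List genes named because they missed the threshold, and S1pr1 and Selplg, were picked after their values were seen. A few list genes are not reported here. Each sample is 1 rat. Depth was 21580397 to 55544871 counts per rat.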

Additional observations from a re-analysis of the deposited data

Results flagged for a closer look

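The genotype difference of Ptprc differed between the ages in males: it was larger at P56 than at P21 by 1.59 on the log2 scale (edgeR quasi-likelihood interaction, FDR = 0.000339), with all 4 R237H P56 males above all 4 at P21 in TPM. That of Thy1 differed as well, with a log2 difference of -0.89 (FDR = 0.00142), which was -0.46 (FDR = 0.0422) on the TPM scale. Age cannot be told apart from the occasion of collection here. None of the values of the 6 genes in groups of 4 or 5 rats stood far from the rest of its group in 42 tests, where chance alone marks about 1 group in 20.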

How the results depend on the processing

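Of 378 alternative fits of the 6 genes across the 4 genotype comparisons, 372 kept direction and side of the threshold, 6 lost the call and 0 changed sign. With a replicate block on the title number, the log2 fold change in P21 females was 1.59 (FDR = 0.0160) for Cd6 and 2.70 (FDR = 0.0344) for Cd22, and that of Thy1 in P56 females was -0.68 (FDR = 0.0132). The genotypes shared 2 numbers in each of these comparisons, and rats with other numbers added nothing to the blocked estimate. That fit left 3 residual degrees of freedom in P21 females and 1 in P56 females, which limits its precision. The labels do not say what the number marks, and same-numbered rats did not all deviate together (r of their deviations -0.02 to 0.21 over 4 pairs of P56 males, 0.08 and 0.42 in P56 females, and 0.00059 to 0.34 in P21 females), so the number is not taken as a pairing. The highest r of all P56 female pairs and of all P21 female pairs was nonetheless a same-numbered one. The P21 males, all from 1 number, could not be blocked. Leaving out each rat gave 2.65 to 3.07 for Cd22 in P21 females, where 4 to 5 of the 5 genes stayed increased, against 3 with the block, under which 5 B cell receptor genes were called there, against 14. Thy1 at P56 was -0.56 in males and -0.42 in females on the TPM scale.

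Of 504 alternative interaction fits, 484 were unchanged. At an FDR of 0.05, the age difference was called in males for Cd22 (1.60) and Btk (0.65) and in females for Ptprc (1.01, also called by the likelihood-ratio test at FDR = 0.00224, and 0.92 to 1.10 with each rat left out, called without R237H female P21 replicate 1 or 5). On the TPM scale it was called for Btk in males (1.04) and Ptprc in females (1.39), lost for Thy1 in males (-0.46), and changed sign, uncalled throughout, for Blnk (0.26 and 0.16). Leaving out single rats changed the sign of 2 uncalled differences, that of Cd6 between the sexes at P56 (-0.32 to 0.15) and of Btk between the ages in females (-0.0034 to 0.23).

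Counts over all genes moved more. Decreased genes in P56 males numbered 1677, and 2558 by DESeq2, 2941 with all 32 rats, 189 by TPM, 1103 with the block, 2865 at an FDR of 0.05 and 928 to 1989 with each rat left out. In P56 females they numbered 1676, and 2547 with 32 rats, 295 by TPM, 547 with the block, 3063 at 0.05 and 1006 to 1603; increased genes numbered 2550, and 1517 with the block. In P21 males decreased genes numbered 721, and 1227 by DESeq2, 180 with 32 rats, 476 by TPM, 1672 at 0.05 and 337 to 890. In P21 females increased genes numbered 1070, and 391 with the block, 1644 at 0.05 and 621 to 1169; decreased genes numbered 114, and 348 by DESeq2, 298 with 32 rats, 252 by the likelihood-ratio test, 73 by TPM, 26 with the block, 371 at 0.05 and 36 to 185. The cause of these changes was not tested. Groups of 3 to 5 rats, and 10 to 97 counts per WT rat for Cd6 and Cd22, limit the precision.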
